A study of Mus musculus with 30 samples.

Results

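The genes described here encode the complexes of the mitochondrial respiratory chain and the ATP synthase, measured while mouse ES cells turned into neuroectoderm. Members were all genes whose symbol begins with Nduf, Uqcr or Atp5, is Sdha, Sdhb, Sdhc or Sdhd, or begins with Cox followed by a digit from 4 to 8, provided that a probe set named that gene alone. There were 80 such genes of 15964 named on the 3 chips, read by 145 probe sets. The count was 39 genes for complex I (32 subunits and 7 Ndufaf assembly factors), 4 for complex II, 7 for complex III, 16 for complex IV and 14 for complex V. One probe set a gene was kept, the brightest on average, and 78 of the 80 members passed the filter on dim probe sets, as did 12941 of all genes. Cox7a1 and Cox8a did not pass. Cox7c, Ndufa11, Ndufb4, Ndufs5 and Ndufs6 were seen only through probe sets shared with other genes, and the subunits encoded by mitochondrial DNA were not analysed here.

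All samples came from the 129-derived Sox1-GFP ES line, in which green fluorescent protein reports Sox1, a gene of early neuroectoderm. The line was differentiated as serum-free floating aggregates (SFEB), sorted by flow cytometry and profiled on Affymetrix U74Av2, U74Bv2 and U74Cv2 chips. The Sox1-positive cells were 3 samples, sorted on days 3, 4 and 5. The other aggregate cells were 4 samples of mixed kind: day 1 with no sort label, day 2 E-cadherin-negative, day 2 E-cadherin-positive and day 3 Sox1-negative. The ES cells were 3 samples sorted as E-cadherin-positive. Only ES cells had replicates, so the spread of the other sets also holds their days and sorts. Nothing says whether the ES samples came from separate cultures, so each p-value covers only the spread seen among these 10 samples, which may be technical. With so few arrays the precision is limited. Levels are linear array intensities, tests and differences are on a log2(intensity + 16) scale, and a gene is called where limma's adjusted p is under 0.05. Each array had been scaled to a common mean before deposit, so a change shared by all transcripts would not appear, and fewer cells of a type and less RNA per cell cannot be told apart.

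The respiratory chain moves electrons from NADH (complex I) and succinate (complex II) through ubiquinone to complex III, and on through cytochrome c to complex IV, which reduces oxygen. Complexes I, III and IV pump protons, and complex V, the ATP synthase, lets them flow back to make ATP. Most subunits are encoded in the nucleus, many of them under the transcription factors NRF1 and GABP, while a few core subunits come from mitochondrial DNA. Pluripotent cells are known for relying strongly on glycolysis, and neurons for relying on respiration.

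The labels were checked against marker genes. Of 16 markers of pluripotent cells 14 fell in Sox1-positive cells relative to ES cells, and of 12 markers of neuroectoderm 11 rose, by limma at an adjusted p under 0.05. Of 11 markers of heart and skeletal muscle, the tissues of several subunit isoforms, none was called. No endoderm (8 tested), mesoderm (4), fibroblast (6) or blood (5) marker was called either, which does not show that such cells were absent. The summed intensity of the mesoderm markers was 431 to 603 in Sox1-positive, 655 to 741 in other aggregate and 271 to 487 in ES cells. That of the endoderm markers was 1098 to 2462 in Sox1-positive and 926 to 1252 in ES cells. Fibroblast and blood sums overlapped between the sets. The ratio of the 3′ to the 5′ actin control on U74Av2, a sign of RNA quality, was 1.34 in day 5 Sox1-positive cells, 1.33 in day 2 E-cadherin-negative cells and 1.70 in ES 3. In the other 7 samples it lay between 0.939 and 1.15.

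In Sox1-positive cells the nuclear transcripts of the family had a median near that of ES cells, although complex III lay lower. None of the 78 members tested passed the limma test of Sox1-positive against ES cells at an adjusted p under 0.05. Among all genes 12.6% passed. Without adjustment 8 members had a p under 0.05 (2 higher and 6 lower), against 27.8% of all genes. The median log2 difference over members was -0.05, and over all genes it was -0.01. The smallest adjusted p of a member was 0.0636, for Ndufs4 by limma. Other settings of the same test called up to 4 members, and these are named with their genes in what follows.

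The intervals show how large a change the samples still allow. For 68 of the 78 members (87.2%) the 95% interval of the log2 difference from ES cells lay wholly between -1 and 1, so a doubling or halving lay outside it, against 53.5% of all genes. Only Cox6b2 and Atp5j2 had a log2 difference of 1 or more in size. Over all 10 samples the highest intensity of a member was typically 1.82 times its lowest, and the highest was under 2 times the lowest for 54 members (69.2%). Over all genes that ratio had a median of 2.27, and 37.7% stayed under 2. The intensities of members thus moved less across these samples than those of the typical gene, a description of these probe sets that was given no test. Members were brighter than genes at large, since a filter at the 60th percentile kept 68 of the 78 members and 8827 of 12941 genes. Neither the ratios nor the intervals were compared with genes of like brightness.

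**Figure D1:**
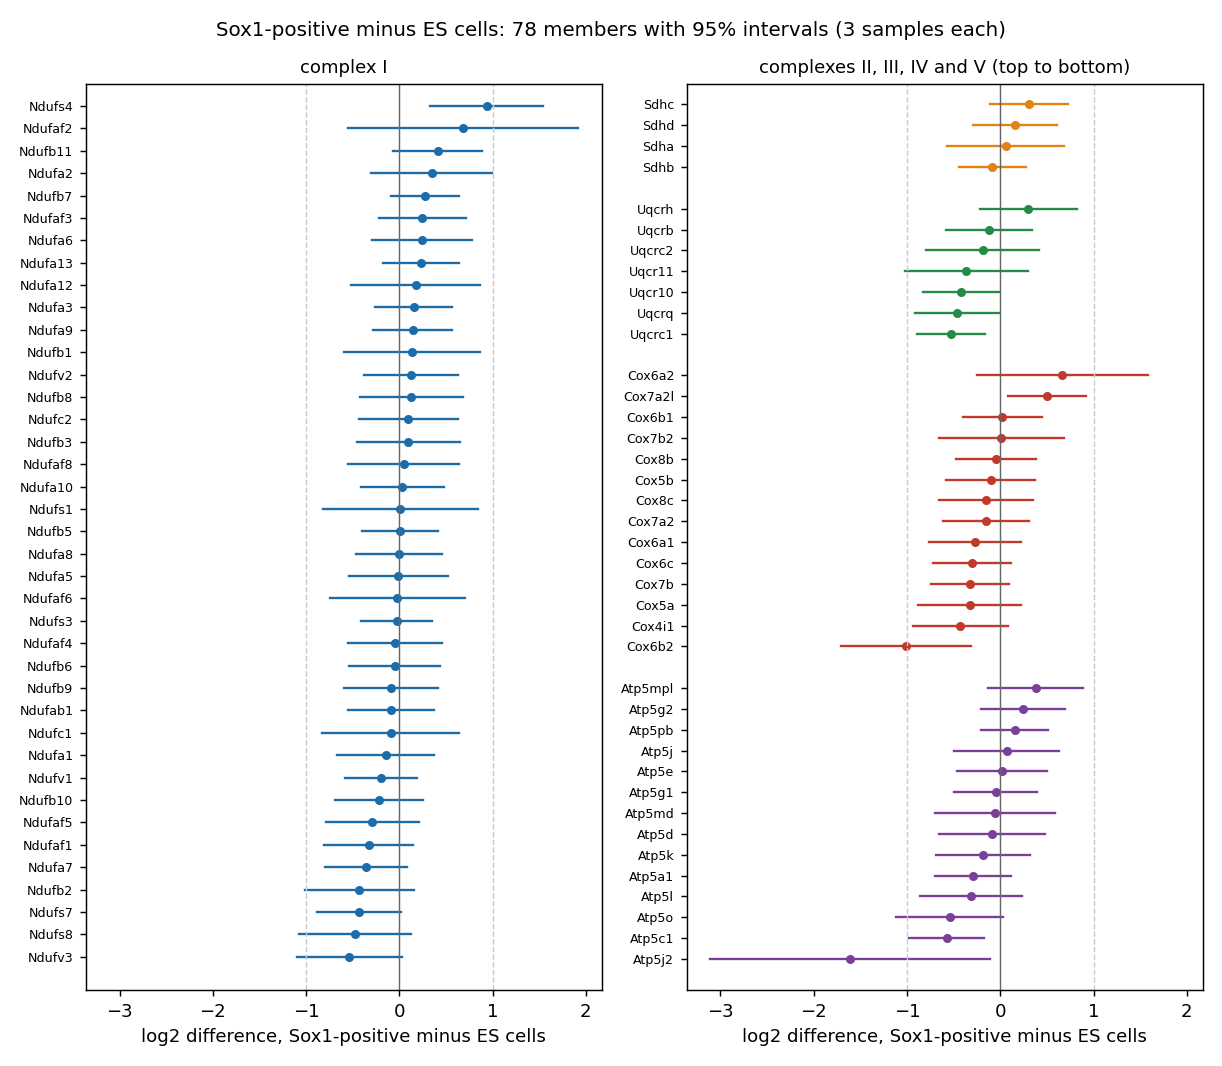
Log2 difference of each of the 78 tested members between Sox1-positive and ES cells (3 samples each), with its 95% interval from limma, on a log2(intensity + 16) scale. Points are coloured and grouped by complex. For 68 members the interval stays between the dashed lines at -1 and 1, and the members farthest from 0 are Ndufs4 on the right and Cox6b2 and Atp5j2 on the left.

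Complex I, the entry point of NADH, was centred on the ES level. Its 39 members had a median log2 difference of 0.01 in Sox1-positive cells, with 20 positive and 19 negative values, and none was called. The 7 assembly factors, which help build the complex without staying in it, had a median of -0.02 and the 32 subunits one of 0.01. The value farthest up was that of Ndufs4, an accessory subunit at the matrix arm whose loss causes a Leigh-like encephalopathy in mice. Ndufs4 had intensities of 1584, 1871 and 1379 in Sox1-positive cells of days 3, 4 and 5, against 918, 721 and 859 in the 3 ES samples. It averaged 1611 ± 247 in Sox1-positive cells and 833 ± 101 in ES cells (SD, n = 3 each). Every Sox1-positive sample lay above every ES sample and above all 4 of the other aggregate samples, which ran from 933 to 1240. The log2 difference of Ndufs4 from ES cells was 0.94 ± 0.26 (SE, adjusted p = 0.0636 by limma, 0.0223 to 0.201 over 17 alternatives). Ndufs4 was called with a filter at the 60th percentile, a mean-variance trend or a pseudocount of 64. A dimmer second probe set of Ndufs4 had a log2 difference of 0.59 with an adjusted p of 0.13.

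The value farthest down in complex I was that of Ndufv3, an accessory subunit of the flavoprotein part. Its intensities were 303, 545 and 442 in Sox1-positive cells, against 582, 726 and 544 in ES cells, so the sets overlapped by the day 4 sample. The log2 difference was -0.53 ± 0.24 (SE, adjusted p = 0.222 by limma). Ndufv1, which binds NADH, had a log2 difference of -0.20 and Ndufs1, the largest iron-sulfur subunit, one of 0.01. Both were chosen after their values were seen, for their place at the catalytic site. Neither was called.

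Complex II links the chain to the citric acid cycle and is encoded wholly in the nucleus. None of its 4 subunits was called. Sdha, the flavoprotein that oxidises succinate, had intensities of 315, 272 and 187 in Sox1-positive cells, against 318, 256 and 172 in ES cells. Sdhb, the iron-sulfur subunit, had 2406, 2375 and 2390 in Sox1-positive cells, against 2558, 2629 and 2423 in ES cells. These samples did not overlap, and the log2 difference of Sdhb was -0.08 (adjusted p = 0.804 by limma). The size depended on the probe set, since the other one of Sdhb, whose name has no suffix, had a log2 difference of -0.30 with overlapping samples (adjusted p = 0.454 by limma). The membrane anchor Sdhc had 4078, 3812 and 3033 in Sox1-positive cells, against 2689, 3011 and 3056 in ES cells, a log2 difference of 0.31 (adjusted p = 0.354 by limma). The other anchor, Sdhd, had a log2 difference of 0.16 (adjusted p = 0.685 by limma).

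Complex III, the cytochrome bc1 complex, stood lowest of the 5 complexes in Sox1-positive cells. The median log2 difference of its 7 members from ES cells was -0.36, and 6 of the 7 were negative. In each of the Sox1-positive samples the median over the 7 members was below the ES mean, at -0.34 for day 3, -0.39 for day 4 and -0.42 for day 5. The ES samples themselves ran from -0.17 to 0.17 by this measure. None of the 7 was called, and 3 of them had an unadjusted p under 0.05 by limma, against 27.8% of all genes. The fall was not uniform. Uqcrc2 and Uqcrb, chosen after their values were seen, overlapped with ES cells. Their log2 differences were -0.19 and -0.12 (adjusted p = 0.729 and 0.784 by limma).

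The member of complex III nearest to the threshold was Uqcrc1, one of the core proteins. Uqcrc1 had intensities of 3915, 4149 and 4292 in Sox1-positive cells, against 6074, 5658 and 6125 in ES cells, with no overlap. Its log2 difference was -0.53 ± 0.16 (SE, adjusted p = 0.0758 by limma, 0.0302 to 0.253 over 17 alternatives). It was called with a filter at the 60th percentile, a mean-variance trend or a pseudocount of 64. A dimmer second probe set of Uqcrc1 had a log2 difference of -0.23 (adjusted p = 0.633 by limma). Uqcr10 and Uqcrq, small subunits that were chosen after their values were seen, also lay below ES cells in all 3 Sox1-positive samples. Uqcr10 averaged 2782 ± 168 in Sox1-positive cells and 3738 ± 495 in ES cells, and Uqcrq averaged 4341 ± 740 in Sox1-positive cells and 5960 ± 736 in ES cells (SD, n = 3 each). Their adjusted p values were 0.194 and 0.192 by limma. Uqcr11, another small subunit chosen after its values were seen, overlapped with ES cells and had a log2 difference of -0.36 (adjusted p = 0.503 by limma). Uqcrh, the hinge protein that binds cytochrome c1, was the member with a positive difference, with 2523, 2595 and 2459 in Sox1-positive cells against 1678, 2833 and 1804 in ES cells, where ES 2 stood above all Sox1-positive samples. Its log2 difference was 0.30 (adjusted p = 0.479 by limma). It ran from 0.16 without ES 1 to 0.53 without ES 2, and a second tested probe set of Uqcrh had one of -0.11 (adjusted p = 0.857 by limma). Cytochrome c1 itself, Cyc1, falls outside the symbol rule and had a log2 difference of -0.45 (adjusted p = 0.146 by limma).

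The upstream sequences of 4 complex III genes are shown because this complex had the lowest median in Sox1-positive against ES cells, together with those of Ndufs4, the highest member, and Atp5g2, which holds an NRF1 word. Each run is the 150 bases before the annotated transcript start, written 5′ to 3′ on the gene's strand, from RefSeq on GRCm38.p6. Capitals mark the NRF1 word CGCATGCG or the ETS word CCGGAAG, on either strand.
Uqcrc1, chr9:108936498-108936647, plus strand: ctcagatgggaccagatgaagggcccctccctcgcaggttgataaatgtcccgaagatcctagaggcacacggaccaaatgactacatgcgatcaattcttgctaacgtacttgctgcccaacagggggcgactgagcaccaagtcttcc
Uqcr10, chr11:4704345-4704494, minus strand: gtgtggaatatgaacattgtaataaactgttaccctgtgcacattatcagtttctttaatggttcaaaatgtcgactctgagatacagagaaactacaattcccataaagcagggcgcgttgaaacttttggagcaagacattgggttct
Uqcr11, chr10:80406822-80406971, minus strand: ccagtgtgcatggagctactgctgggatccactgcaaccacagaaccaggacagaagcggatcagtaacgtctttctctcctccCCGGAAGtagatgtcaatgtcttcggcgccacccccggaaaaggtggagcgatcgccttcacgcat
Uqcrh, chr4:116075071-116075220, minus strand: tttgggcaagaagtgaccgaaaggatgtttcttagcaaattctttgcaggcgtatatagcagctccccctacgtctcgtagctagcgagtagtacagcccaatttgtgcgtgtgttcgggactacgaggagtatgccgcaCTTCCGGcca
Ndufs4, chr13:114388095-114388244, minus strand: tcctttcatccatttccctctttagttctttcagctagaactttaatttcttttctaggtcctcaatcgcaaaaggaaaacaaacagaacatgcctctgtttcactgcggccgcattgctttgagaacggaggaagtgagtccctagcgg
Atp5g2, chr15:102671048-102671197, minus strand: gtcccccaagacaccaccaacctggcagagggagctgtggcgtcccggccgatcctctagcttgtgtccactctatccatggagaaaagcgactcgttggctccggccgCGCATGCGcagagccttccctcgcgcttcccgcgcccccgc

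Windows from 250 bases before to 50 after the start were available for 66 members and searched on both strands for 4 words. The NRF1 word CGCATGCG stood in the windows of 10 members (15.2%), against 2.77% of 17491 protein-coding genes. The ETS word CCGGAAG, which GABP can bind, stood in 18 members (27.3%), against 12.9% of coding genes. The YY1 word AAGATGGCG was found in 7 members (10.6%), against 2.14% of coding genes, and the estrogen-related receptor word TCAAGGTCA in 1 member (1.52%), against 0.377%. The ETS and YY1 words can share letters, but in no member window did 2 of the words overlap. In Uqcr11 an NRF1 word begins at -5 counted from the start and crosses it, in Uqcrc1 one begins at 31, and Ndufs4 holds a YY1 word at 35, none of which lies wholly within the bases shown. A word is a description of the letters and not a mapped binding site. The 10 members with the NRF1 word had a median log2 difference of -0.23 in Sox1-positive against ES cells, with 8 of them negative, and the 37 tested members with none of the words had one of -0.01, with 19 negative. The median was -0.05 over the 17 tested members with the ETS word, of which 10 were negative. Over the 7 with the YY1 word it was 0.05, with 3 negative. In other aggregate against ES cells the median was 0.13 with the NRF1 word and 0.11 with none of the words. Some genes hold several words, so these groups share members, and the differences between groups were not tested.

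Complex IV, cytochrome c oxidase, has nuclear subunits with paired isoforms for different tissues. None of its 14 tested members was called, and their median log2 difference from ES cells was -0.15, with 10 of 14 negative. Cox6b2, the testis form of subunit VIb, lay farthest down, with 590, 548 and 541 in Sox1-positive cells against 710, 1742 and 1213 in ES cells. The sets did not overlap, and the Sox1-positive samples were far closer to each other than the ES samples were. The log2 difference of Cox6b2 was -1.01 ± 0.30 (SE, adjusted p = 0.0746 by limma, 0.0138 to 0.267 over 16 alternatives). It was called without ES 1, with a filter at the 60th percentile or with a mean-variance trend. Of the other tested probe sets of Cox6b2, one had a log2 difference of -0.99 and another one of 0.02. The common form Cox6b1 had a log2 difference of 0.02 (adjusted p = 0.962 by limma).

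The isoforms of heart and skeletal muscle gave no call. The summed intensity of the 11 muscle markers was 2018 to 3734 in Sox1-positive cells, 2476 to 3697 in other aggregate cells and 2852 to 3958 in ES cells. Cox6a2, the muscle form of subunit VIa, had 133, 126 and 136 in Sox1-positive cells, against 177, 48.9 and 48.7 in ES cells. Here ES 1 stood above all Sox1-positive samples and the other ES samples far below them. The log2 difference of Cox6a2 was 0.66 (adjusted p = 0.36 by limma), and without ES 1 it was 1.19 and was called (adjusted p = 0.0108). The common form Cox6a1 averaged 5168 ± 501 in Sox1-positive cells and 6331 ± 1394 in ES cells (SD, n = 3 each), with a log2 difference of -0.27. Cox7a1, the muscle form of subunit VIIa, was too dim to be tested, with intensities from 6.22 to 93.6 over the 10 samples. Its common partner Cox7a2 had a log2 difference of -0.15. Cox8b, the muscle form of subunit VIII, had a log2 difference of -0.04, the testis form Cox8c one of -0.15, and the common form Cox8a was too dim to be tested. Cox4i2, Atp5g3, Ndufa4 and Ndufa4l2 were not analysed here.

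Among the common subunits of complex IV, Cox4i1 had a log2 difference of -0.43, Cox7b one of -0.32 and Cox6c one of -0.30, with adjusted p values of 0.28, 0.326 and 0.357 by limma. Cox7a2l, which ties complex IV to complex III in supercomplexes, stood above ES cells without overlap. It had 2632, 2340 and 2964 in Sox1-positive cells, against 1630, 1928 and 2038 in ES cells. Its log2 difference was 0.50 ± 0.18 (SE, adjusted p = 0.131 by limma), and no alternative called it.

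Complex V, the ATP synthase, had no called member among 14 in Sox1-positive against ES cells, and its median log2 difference was -0.07. Atp5c1, the gamma subunit that turns inside the catalytic head, had 3826, 3854 and 4584 in Sox1-positive cells, against 5454, 6526 and 6276 in ES cells. The sets did not overlap, and the log2 difference was -0.57 ± 0.17 (SE, adjusted p = 0.0793 by limma, 0.035 to 0.236 over 17 alternatives). A filter at the 60th percentile or a mean-variance trend called it. A second probe set of Atp5c1 had a log2 difference of -0.38 (adjusted p = 0.253 by limma). Atp5c1 was chosen after its values were seen. Atp5j2, subunit f of the membrane part, had the largest difference in the family, with 61.3, 156 and 12.1 in Sox1-positive cells against 236, 252 and 141 in ES cells. The day 4 sample overlapped with ES 3, and the log2 difference was -1.61 ± 0.64 (SE, adjusted p = 0.173 by limma). The day 5 intensity of Atp5j2 was below the pseudocount of 16, so the log2 scale understates that difference. Without day 5 the log2 difference was -0.93 and without day 4 it was -2.24. These values come from a probe set with a suffix. The other probe set of Atp5j2, too dim to be tested, read 65.9, 48.4 and 85.7 in Sox1-positive cells against 63.1, 44.4 and 64.8 in ES cells, so it did not show the lower level. Atp5mpl, a small membrane subunit, lay farthest up, with a log2 difference of 0.38 (adjusted p = 0.342 by limma). Atp5g1 and Atp5g2, genes for the ring subunit c, had log2 differences of -0.05 and 0.25.

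**Figure D2:**
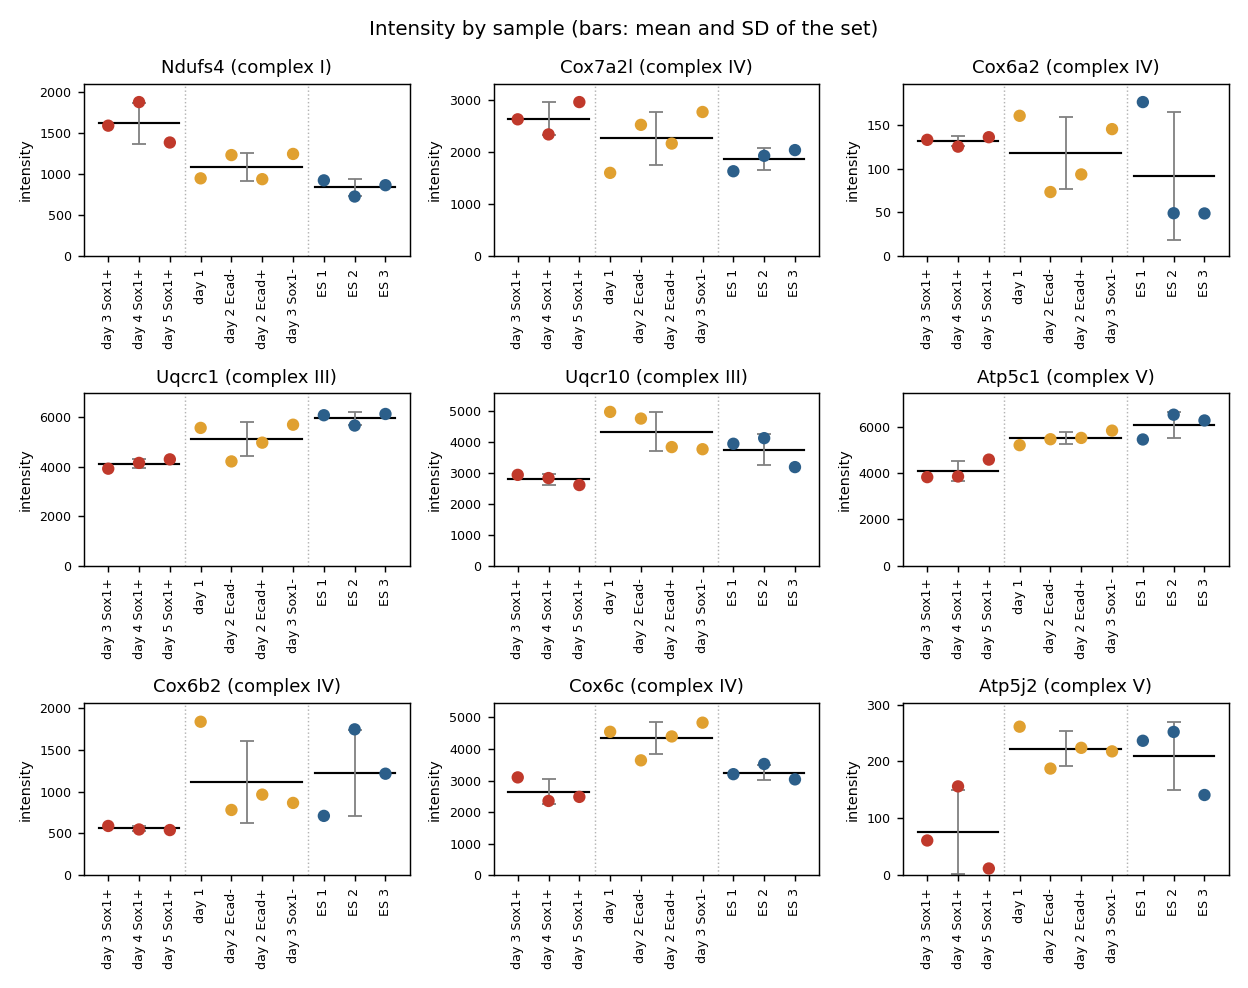
Intensity of 9 members in each of the 10 samples (linear axes from 0), with Sox1-positive cells in red, other aggregate cells in yellow and ES cells in blue. Black lines are set means and grey bars the SD. Ndufs4 is highest and Atp5c1 and Cox6b2 are lowest in the 3 Sox1-positive samples, Uqcrc1 is below all ES samples there but overlaps with other aggregate cells, and the ES samples of Cox6a2 and Cox6b2 lie far apart.

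Sox1-positive cells lay wholly above ES cells for 4 members and wholly below for 13 of 78. Among all genes 16.9% lay wholly above and 18.2% wholly below. The 4 above were Ndufs4, Cox7a2l, Ndufb7 (log2 difference 0.28, adjusted p = 0.332 by limma) and Atp5pb (log2 difference 0.15, adjusted p = 0.62 by limma). Ndufb7, a complex I subunit, and Atp5pb, subunit b of the stator of complex V, were chosen after their values were seen. The share of members below was near that of all genes.

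The other aggregate cells, which had not switched Sox1 on or were not sorted for it, stood slightly above ES cells. By markers these samples differed. Relative to the ES mean, neuroectoderm markers had a median log2 difference of 1.91 in day 2 E-cadherin-negative cells. In the other samples of the set it lay between 0.16 and 0.27. For pluripotent markers the median was -1.82 in day 2 E-cadherin-negative cells and between -0.35 and -0.14 in the others. The median log2 difference of members was 0.12 in the other aggregate cells against ES cells, and over all genes 0.01, with 53 of 78 members positive. No member was called, and among all genes only 0.0309% were. Without adjustment 3 members had a p under 0.05, all higher, against 10% of all genes. The samples lay wholly above ES cells for 8 members and wholly below for none, and among all genes for 5.43% and 5.76%. The smallest adjusted p was that of Ndufa13 (GRIM-19), at 0.415 by limma, and this gene was chosen after its values were seen. It had 1037, 1328, 1077 and 1086 in day 1, day 2 E-cadherin-negative, day 2 E-cadherin-positive and day 3 Sox1-negative cells, against 793, 898 and 759 in ES cells. The log2 difference of Ndufa13 was 0.46 ± 0.17 (SE). In 74 of the 78 members (94.9%) the 95% interval lay between -1 and 1, as in 69.6% of all genes. This comparison uses the same ES samples as the first.

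Set against the other aggregate cells, the Sox1-positive cells had lower values across most of the family. Of the 78 members 60 were negative and 18 positive, with a median log2 difference of -0.17, and over all genes the median was -0.03. No member was called by limma at an adjusted p under 0.05, and 1.75% of all genes were. Without adjustment 13 members had a p under 0.05, of which 12 were lower, against 22% of all genes. Sox1-positive cells lay wholly below the other aggregate cells for 19 members and wholly above for 1, Ndufs4. Among all genes 10.8% lay wholly below and 10.3% wholly above. For 70 members (89.7%) the 95% interval lay between -1 and 1, as in 61.1% of all genes.

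By complex, the median log2 difference between Sox1-positive and other aggregate cells was -0.16 for complex I, -0.03 for complex II, -0.30 for complex III, -0.18 for complex IV and -0.28 for complex V. In complex V 13 of the 14 members were negative. Cox6c, a small subunit of complex IV, had the smallest adjusted p, with 3103, 2357 and 2486 in Sox1-positive cells against 4546, 3642, 4399 and 4835 in the other aggregate cells. Its log2 difference was -0.72 ± 0.18 (SE, adjusted p = 0.0768 by limma), and it was called with a filter at the 60th percentile, with a mean-variance trend and without the day 2 E-cadherin-negative sample. Cox6c lay between 3040 and 3527 in ES cells, and its values there overlapped with those of the Sox1-positive cells. Uqcr10 had a log2 difference of -0.62 ± 0.17 (SE, adjusted p = 0.0968 by limma), and its values lay between 2597 and 2926 in Sox1-positive cells, against 3753 to 4956 in the other aggregate cells.

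**Figure D3:**
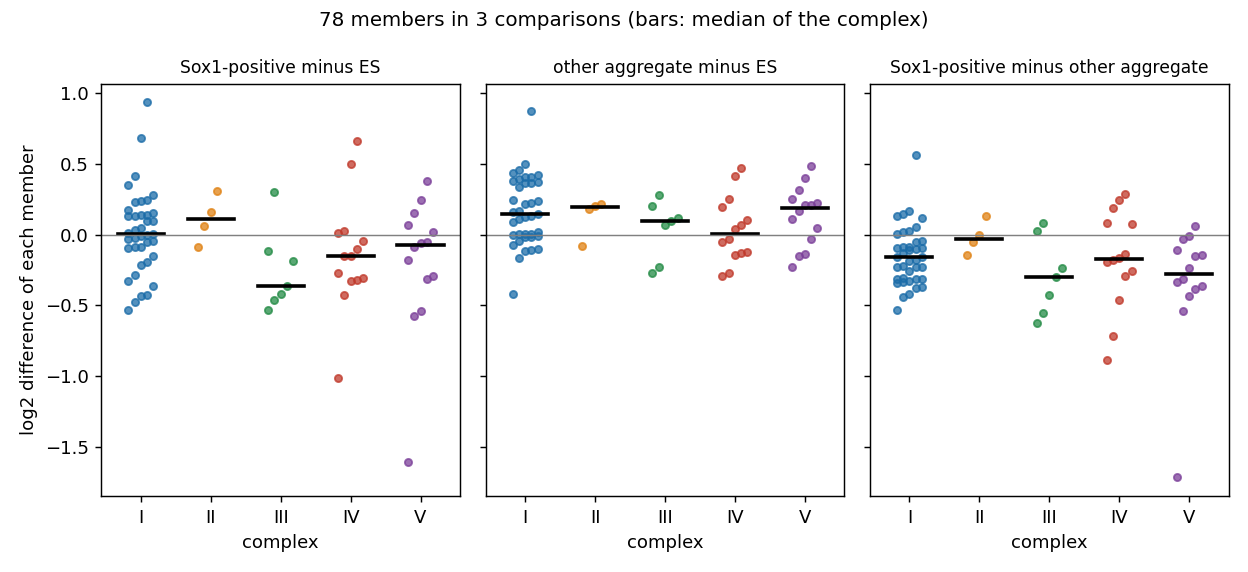
Log2 difference of each of the 78 members in 3 comparisons, by complex, with a black bar at the median of the complex. Complex III sits at a median of -0.36 in Sox1-positive against ES cells, the medians of complexes I, II, III and V lie between 0.09 and 0.19 in other aggregate against ES cells, and all 5 medians lie below 0 in Sox1-positive against other aggregate cells.

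The values of single samples show how far these shifts depend on the ES cells. Set against the mean of the ES samples, the median of the 78 members in Sox1-positive cells was -0.0049 for day 3, -0.07 for day 4 and -0.13 for day 5. It was 0.08 in day 1 cells, 0.18 in day 2 E-cadherin-negative, 0.11 in day 2 E-cadherin-positive and 0.09 in day 3 Sox1-negative cells. Among the ES samples it was -0.07, 0.17 and -0.10, so that ES 2 stood as far above the ES mean as any aggregate sample except day 2 E-cadherin-negative. Medians over all genes stayed between -0.01 and 0.04 in all 10 samples. ES 2 and day 2 E-cadherin-negative cells each held the highest value of 16 members, against 8.77% and 9.14% of all genes. Day 5 Sox1-positive cells held the lowest value of 16 members, and ES 1 and ES 3 that of 14 each. Among all genes these shares were 16.3%, 11.4% and 10.3%. Without ES 2 the median difference between Sox1-positive and ES cells was 0.02 in place of -0.05, and that of the other aggregate cells was 0.21 in place of 0.12. Without ES 3, the sample with the highest actin ratio, these medians were -0.11 and 0.05.

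**Figure D4:**
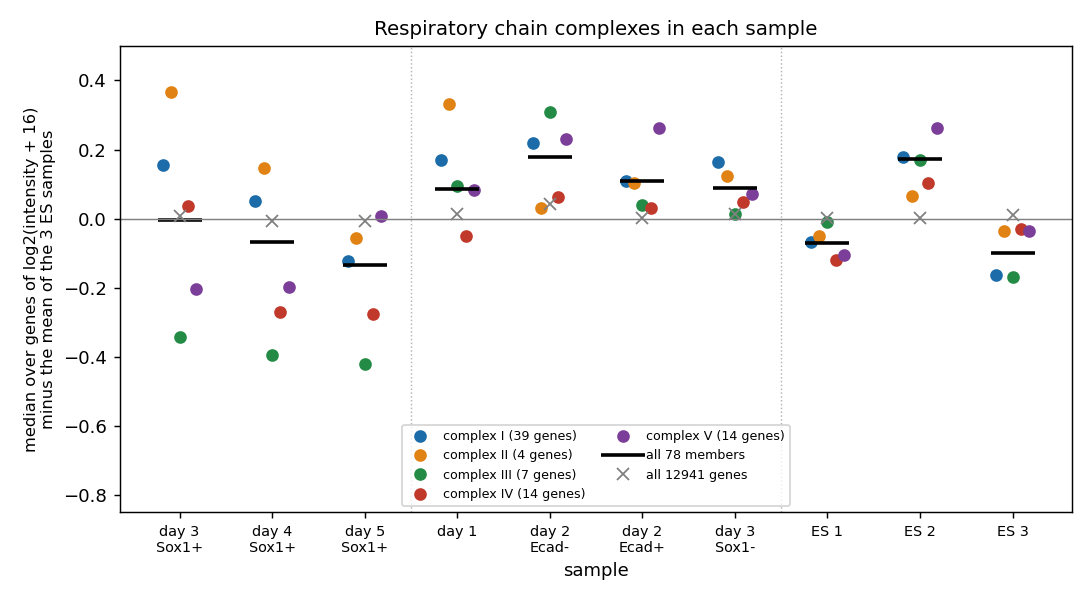
Median over the genes of each complex of log2(intensity + 16) minus the mean of the 3 ES samples, for each sample, with all 78 members (black bars) and all 12941 genes (crosses). Complex III lies lowest in each Sox1-positive sample, from -0.34 to -0.42, and the bar of all members reaches 0.17 in ES 2 against -0.07 in ES 1 and -0.10 in ES 3.

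Pairs of ES samples show the spread to set beside the sorts of one day. The median log2 difference of members was -0.19 for ES 1 minus ES 2, 0.34 for ES 2 minus ES 3 and 0.02 for ES 1 minus ES 3, and medians over all genes lay between -0.01 and 0.00. A difference of 1 or more in size occurred for 6, 1 and 2 members in these pairs, and for 7.36%, 5.23% and 10.3% of all genes. Day 3 Sox1-positive minus Sox1-negative cells had a median of -0.10 over members, with 1 member past 1 in size (Atp5j2, at -1.60), against 14.2% of all genes. Day 2 E-cadherin-negative minus E-cadherin-positive cells had a median of 0.04, with no member past 1, against 11.7% of all genes. With 1 sample for each sorted population, no test was made.

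Each aggregate sample was also compared with the ES cells alone in a limma fit of 8 groups, which assumes that a lone sample varies as ES samples do. Only Atp5j2 in day 5 Sox1-positive cells was called, with a log2 difference of -2.97 (adjusted p = 0.0441 by limma). The intensity behind this call was 12.1, and the other, untested probe set of Atp5j2 read 85.7 in the same sample, above all 3 ES samples. Atp5j2 was not called with a pseudocount of 64 or without ES 2. The actin ratio of the day 5 sample was 1.34 on U74Av2 and 1.44 on U74Cv2, the chip of the called probe set. Its part in the result was not tested. The log2 differences of members in Sox1-positive cells ran from -1.51 to 0.92 on day 3 and from -1.04 to 1.33 on day 4. On day 5 they ran from -2.97 to 0.72. They ran from -0.80 to 1.14 in day 1 and from -0.68 to 0.98 in day 2 E-cadherin-negative cells. In day 2 E-cadherin-positive cells the range was -0.54 to 1.34, and in day 3 Sox1-negative cells -0.68 to 0.79. In Sox1-positive cells 1.79% of all genes were called for day 3, 2.18% for day 4 and 5.15% for day 5. It was 0.0232% in day 2 E-cadherin-negative cells and 0% in day 1, day 2 E-cadherin-positive and day 3 Sox1-negative cells.

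Members moved together over the samples to a small degree. On U74Av2, which held 62 of the tested members, the median Pearson correlation between 2 members over the 10 samples was 0.22, within one complex 0.24 and across complexes 0.21. By complex it was 0.24 for complex I, 0.01 for II, 0.26 for III, 0.05 for IV and 0.28 for V. The median correlation of a member with other genes of that chip was 0.0013. Without ES 2 the value between members was also 0.22. The points share the same 10 arrays, so these values describe the arrays as much as the genes.

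Most genes that work beside the chain were not called either. Of 22 tested regulators of mitochondrial genes 6 fell in Sox1-positive relative to ES cells and none rose, with a median log2 difference of -0.23, against 12.6% of all genes called in either direction. The largest were Esrrb, an estrogen-related receptor and pluripotency factor that also belongs to the marker list of ES cells, and Pdk1, the kinase that shuts off pyruvate dehydrogenase. Esrrb averaged 103 ± 35.9 in Sox1-positive cells and 13469 ± 3157 in ES cells (SD, n = 3 each, log2 difference -6.85, adjusted p = 0.000158 by limma). Pdk1 averaged 648 ± 186 in Sox1-positive cells and 2140 ± 164 in ES cells (SD, n = 3 each, log2 difference -1.73, adjusted p = 0.00375 by limma). Nrf1 and Gabpa, whose words were searched in the promoters and which were chosen after their values were seen, fell as well. Nrf1, a nuclear respiratory factor, had 838, 701 and 686 in Sox1-positive cells, against 1331, 1423 and 1446 in ES cells. Its log2 difference was -0.91 (adjusted p = 0.0191 by limma), and that of Gabpa, the DNA-binding part of GABP, was -0.71 (adjusted p = 0.0455 by limma). For Tfam and Ppargc1a, also chosen after their values were seen, no change was called. Tfam, which packages and helps transcribe mitochondrial DNA, had a log2 difference of -0.03, and the coactivator Ppargc1a one of 0.73 (adjusted p = 0.171 by limma).

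Of 30 tested assembly factors outside the symbol rule 3 fell and none rose, with a median of -0.09. This number is near the 12.6% of all genes called and shows nothing particular to the list. Ecsit, which helps to assemble complex I, averaged 239 ± 95.6 in Sox1-positive cells and 582 ± 71.8 in ES cells (SD, n = 3 each, log2 difference -1.28, adjusted p = 0.0247 by limma). Cox17, the copper chaperone of complex IV, averaged 1573 ± 94.1 in Sox1-positive cells and 3487 ± 886 in ES cells (SD, n = 3 each, log2 difference -1.11, adjusted p = 0.0154 by limma). Uqcc1, an assembly factor of complex III, rose in Sox1-positive against other aggregate cells, with 717 ± 71.6 against 316 ± 97.7 (SD, n = 3 and 4, log2 difference 1.18, adjusted p = 0.0498 by limma). Against ES cells its log2 difference was 0.65 (adjusted p = 0.12 by limma). In Sox1-positive against other aggregate cells 2 of 22 tested regulators and 1 of 15 tested glycolytic genes were called lower and none higher. Among all genes 1.75% were called in that comparison.

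None of 17 tested genes of the citric acid cycle and pyruvate dehydrogenase and none of 10 carriers of electrons, phosphate or ADP was called in Sox1-positive against ES cells. Their medians were 0.09 and -0.28. Of 15 tested glycolytic genes 1 fell, Ldhb, one of the lactate dehydrogenase subunits, with 421 ± 14.4 in Sox1-positive cells and 897 ± 208 in ES cells (SD, n = 3 each, log2 difference -1.04, adjusted p = 0.0201 by limma). Among all genes 12.6% were called in either direction, and with lists this short the counts show nothing particular to them. Of 70 mitochondrial ribosomal protein genes, a list added after the data had been seen, 1 rose and 3 fell, with a median of -0.18, a smaller share than the 12.6% called among all genes. Mrpl23 rose (log2 difference 1.09, adjusted p = 0.00992 by limma), while Mrps12 (log2 difference -0.90, adjusted p = 0.0129 by limma) and Mrpl15 (log2 difference -0.85, adjusted p = 0.03 by limma) fell. In other aggregate against ES cells no gene of these lists was called.

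Of the 30 members with more than 1 tested probe set, 17 had all of them on the same side of 0 in Sox1-positive against ES cells and 26 in Sox1-positive against other aggregate cells. Over all 120 tested probe sets of members none was called in either comparison, with 11 and 17 at an unadjusted p under 0.05 by limma. For 21 of the kept probe sets the name carries a suffix that marks probes shared with related transcripts or another limit of design, among them those of Cox6b2, Cox6c and Atp5c1.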

How the data were processed

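RNA of 10 samples was hybridised to 3 chips each, and the deposited value was 1 linear intensity per probe set and array. The intensities had been scaled before the authors deposited them, since the trimmed means of the arrays lay between 500.108 and 500.281. The sources used here do not give the software, background correction or summary method. Array medians ran from 177 to 278. Control probe sets (198) were left out, and 25690 of 36701 others passed the filter, a mean intensity at or above the 30th percentile of their chip. Probe sets were named from the platform's tables, with symbols updated to RefSeq (GRCm38.p6).

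Values were analysed as log2(intensity + 16), which understates the changes of dim genes. Sets were compared with limma (version 3.58.1 in R 4.3.3), by lmFit and eBayes on each chip with Benjamini-Hochberg adjustment over the 3 chips, and an adjusted p under 0.05 was called. The code was tested on simulated data. Tables and figures were made in Python 3.11.15. Members and lists were chosen with earlier results of these data known. Named with values were members called, the largest difference each way per complex, isoform families, complex II and the 2 largest called each way per list, and other genes are marked. The orientation of promoter windows was checked by the position of TATAAA. Alternatives were other scalings, pseudocounts, filters, probe set rules, adjustment, prior and samples left out.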

Additional observations from a re-analysis of the deposited data

How the results depend on the processing

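The count of 0 members called in other aggregate against ES cells was 0 under all 18 alternatives. Only 4 of all 12941 genes were called there in the main setting, and 1 to 13 under the alternatives. With so few calls among all genes, the 0 shows nothing particular to the family. For Sox1-positive against ES cells the count of members called was 0 under 13 alternatives. A filter at the 60th percentile called 4 of 68 members (Ndufs4 higher, Atp5c1, Cox6b2 and Uqcrc1 lower), against 1609 of 8827 genes. A mean-variance trend called 4 (the same genes by name), against 2003 of 12941 genes. A pseudocount of 64 called 2 (Ndufs4 and Uqcrc1), against 1868 genes. With a sample left out the count was 0 to 2, the 2 being Cox6a2 and Cox6b2 without ES 1, against 1224 genes. For Sox1-positive against other aggregate cells the count was 0 under 15 alternatives. A filter at the 60th percentile called 1 member (Cox6c), against 465 of 8827 genes. A trend called Cox6c too, against 509 of 12941 genes. Counts with a sample left out ran from 0 to 1, the 1 being Cox6c without the day 2 E-cadherin-negative sample, against 1321 genes. The 1 call among single samples was 0 with a pseudocount of 64, 0 without ES 2 and 6 without ES 1 (Cox6a2 and Cox6b2 on each Sox1-positive day). The cause was not tested, except that the 60th percentile tests fewer genes.

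Medians over members ran from -0.11 to 0.02 for Sox1-positive against ES cells, from 0.05 to 0.21 for other aggregate against ES cells and from -0.23 to -0.13 for Sox1-positive against other aggregate cells. Each of these moved from its reported value by less than 0.15, the SD of the medians of the ES samples. That tolerance is larger than the reported medians of -0.05 and 0.12 against ES cells, so it cannot show them to be stable. The median of Sox1-positive against ES cells changed sign without ES 2. Leaving out together ES 3, day 5 and day 2 E-cadherin-negative, the samples of highest actin ratio, was added after seeing the data and called no member in any of the 3 comparisons. Among all genes it called 626 for Sox1-positive and 1 for other aggregate against ES cells, and 748 for Sox1-positive against other aggregate cells. No paired analysis was made. The sample labels do not say whether the sorted fractions of one day came from the same aggregates. The tests treated them as separate samples, with day 3 Sox1-positive and Sox1-negative cells on opposite sides of one comparison. The median width of a member's 95% interval to each side was 0.50 for Sox1-positive against ES cells, which limits how small a difference can be told from 0.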
